A study of Mus musculus with 12 samples.

Results

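The expression of 10 genes of branched-chain amino acid catabolism was examined in the left ventricle of mice lacking cardiomyocyte Gch1. The genes were grouped by their place in the pathway. They were Bcat2, Bckdha, Bckdhb, Dbt, Bckdk, Ppm1k, Ivd, Mccc1, Mccc2 and Hibch, found by symbol among the 26921 gene identifiers of the count table. All 10 were among the 11225 genes tested, which reached a cpm (read counts relative to library size) above 3 in 6 or more libraries. RNA was sequenced from 6 WT and 6 cmGch1 KO mice, all 16 weeks old. Gch1 encodes GTP cyclohydrolase, the enzyme that starts tetrahydrobiopterin synthesis. Both genotypes carried floxed Gch1 alleles on both chromosomes (Gch1 flox/flox), and cmGch1 KO mice also carried heterozygous Cre recombinase driven by α-MHC, a promoter of cardiomyocytes. WT littermates had no Cre, so the deletion and the presence of Cre cannot be told apart in this comparison.

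Leucine, isoleucine and valine are broken down in mitochondria. Bcat2, the mitochondrial branched-chain aminotransferase, removes the amino group and leaves branched-chain keto acids. These are decarboxylated irreversibly by the branched-chain keto acid dehydrogenase complex, whose decarboxylase is made of the α subunit Bckdha and the β subunit Bckdhb, whose core acyltransferase is Dbt, and whose dihydrolipoamide dehydrogenase, Dld, is shared with the pyruvate dehydrogenase complex. The kinase Bckdk phosphorylates Bckdha and switches the complex off, and the phosphatase Ppm1k switches it on. The acyl-CoA products then follow separate branches, with Ivd, Mccc1 and Mccc2 on that of leucine and Hibch on that of valine. Heart muscle expresses this pathway strongly, and Klf15 is known as a transcription factor that activates it there.

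The targeted gene was checked first. Gch1 averaged 10.7 ± 0.974 cpm in WT against 5.48 ± 0.855 cpm in cmGch1 KO (SD, n = 6), counted over all its exons and not only the deleted ones. Its log2 fold change was -0.96 (adjusted p = 6.9e-04; here and below the adjusted p is that of the edgeR quasi-likelihood fit, corrected over all tested genes by the Benjamini-Hochberg method), and each cmGch1 KO library was below each WT library. Total counts were between 22356463 and 37917806 in WT and between 19921398 and 35480715 in cmGch1 KO libraries. The 10 genes had between 793 and 17444 counts in a library. Replicates 2 and 3 of cmGch1 KO stood apart from the other 10 libraries. Their mitochondrial genes held 14.9% and 16.1% of the counts, against 18.3% to 22.9% in the others. Xist was at 86.7 and 99.1 cpm in these replicates and at most 0.234 cpm elsewhere, while Uty, Kdm5d, Ddx3y and Eif2s3y, which are Y-linked, had 0 counts, which allows up to 0.151 and 0.138 cpm a gene (counting error only), against a sum of 167 to 192 cpm elsewhere. By these genes, replicates 2 and 3 of cmGch1 KO had the expression of females and the other 10 libraries that of males. Sex was thus not balanced between the genotypes. The labels do not give it, and the paper states that it used mice of both sexes. Each result is therefore also given without these replicates where its call depends on them.

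The cardiomyocyte markers Myh6, Tnnt2, Tnni3, Actc1, Ryr2, Mb, Myl2 and Pln summed to between 69665 and 75255 cpm in WT and between 63469 and 66277 cpm in cmGch1 KO libraries, so the genotypes did not overlap (p = 0.00216, two-sided exact permutation test). No marker of the 8 passed an FDR of 0.05, and none had an unadjusted p under 0.05 (edgeR). Of the 8, 7 had a log2 fold change below 0, Actc1 was at 0.10, and the median was -0.17. The skeletal muscle genes Myh1, Myh2, Myh4 and Tnnt3 summed to 0.228 to 0.600 cpm in WT and 0.496 to 1.08 cpm in cmGch1 KO libraries (p = 0.0065, two-sided exact permutation test), and Myh4 was at 0 in every library. Adipocyte markers (Adipoq, Plin1, Cidec, Retn, Ucp1) summed to at most 3.48 cpm. Macrophage markers (Cd68, Adgre1, Csf1r, C1qa, Cd163) summed to 92.9 to 110.5 cpm in WT and 108 to 129 cpm in cmGch1 KO libraries (p = 0.0043, two-sided exact permutation test), and 0 of 5 passed the FDR. Before adjustment 4 of the 5 were higher with a p under 0.05 (edgeR), beside 7.01% of all tested genes, and Cd163 was slightly below 0. Of the 5 pericyte and smooth muscle markers (Rgs5, Pdgfrb, Acta2, Myh11, Cspg4) Acta2 alone passed it, with a log2 fold change of 0.66 (adjusted p = 0.0067, edgeR). In this list 3 log2 fold changes were above 0 and 2 below. The 5 summed to 805 to 921 cpm in WT and 852 to 979 cpm in cmGch1 KO libraries (p = 0.132, two-sided exact permutation test). None of the fibroblast, endothelial, atrial or blood markers passed the FDR. Log2 fold changes were above 0 for 5 of 5 fibroblast, 4 of 5 endothelial and 2 of 3 atrial markers. They were below 0 for 5 of 5 blood markers, with a median of -0.39. The sums gave p = 0.385 for fibroblast and p = 0.180 for blood markers (two-sided exact permutation test). The part of these shifts in the results below was not tested. In whole tissue fewer cardiomyocytes, less RNA per cardiomyocyte and a change of the marker genes themselves cannot be told apart.

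The promoters of 3 genes are shown because they frame the comparisons that follow. Bckdhb was the only gene of the 10 to pass the test, and Mccc2 and Mccc1 encode the subunits of 1 enzyme whose transcripts differed in response. Each sequence is the 250 bases before the RefSeq start of the gene on GRCm38.p6, read 5′ to 3′ on the gene's strand. Capitals mark matches, on either strand, to the CACC box (CCACCC), the CCAAT box (CCAAT) and the GC box (GGGCGG). The windows lie at chr9:83924887-83925136 on the plus strand for Bckdhb, at chr13:100015640-100015889 on the minus strand for Mccc2 and at chr3:36000679-36000928 on the minus strand for Mccc1.
Bckdhb: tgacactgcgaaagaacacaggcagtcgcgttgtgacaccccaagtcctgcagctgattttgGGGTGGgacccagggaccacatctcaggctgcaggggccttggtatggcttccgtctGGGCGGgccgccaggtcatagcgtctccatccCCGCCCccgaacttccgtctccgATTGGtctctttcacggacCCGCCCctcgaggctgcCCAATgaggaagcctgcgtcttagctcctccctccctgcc
Mccc2: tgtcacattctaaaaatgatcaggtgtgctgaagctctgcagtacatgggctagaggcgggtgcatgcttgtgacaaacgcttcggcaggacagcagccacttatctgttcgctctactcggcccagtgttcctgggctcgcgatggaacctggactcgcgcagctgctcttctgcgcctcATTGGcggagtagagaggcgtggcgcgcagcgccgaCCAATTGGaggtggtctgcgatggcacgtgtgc
Mccc1: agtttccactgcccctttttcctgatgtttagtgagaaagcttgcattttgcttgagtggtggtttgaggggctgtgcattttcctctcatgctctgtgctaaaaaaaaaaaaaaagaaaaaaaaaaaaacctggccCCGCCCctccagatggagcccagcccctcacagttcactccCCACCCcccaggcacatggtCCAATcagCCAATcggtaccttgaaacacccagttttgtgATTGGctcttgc

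Windows of 300 bases, with 50 bases after the start included, were found for 9 of the 10 genes and for 11127 starts of 8647 tested genes. The CCAAT box was in 6 of the 9 windows (Bckdhb, Bckdk, Ivd, Mccc1, Mccc2 and Ppm1k) and in 37.0% of all windows. The GC box was in 4 of 9 and in 63.5% of all, and the CACC box in 4 of 9 and in 36.9% of all. Of the other motifs searched, TGACGT was found in Ppm1k (11.6% of all windows), while AAGGTCA (3.13%), GCATGCG (6.4%) and CCGGAAG (17.6%) were found in none of the 9. In Mccc2 a pair of CCAAT matches on opposite strands overlap. Mccc2 had 18 CpG pairs in the 250 bases and 58.8% G and C, whereas Mccc1 had 2 CpG pairs and 48.4% G and C. The medians over the windows of all tested genes were 16 CpG pairs and 60% G and C, so Mccc2 was near them and Mccc1 below. A match describes these letters and is not evidence of a bound site.

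At an FDR under 0.05, 1 of the 10 genes differed between the genotypes. Bckdhb fell to 72.6% of its WT level in cmGch1 KO hearts, while 0.445% of all tested genes were lower at this FDR and 1.12% differed in either direction. Its partner subunits Bckdha and Dbt were at 76.1% and 78.6% of WT, and neither passed the threshold. With no adjustment, 5 of 10 had a p under 0.05 and were lower (Bckdha, Bckdhb, Dbt, Ivd and Mccc2), against 4.51% of all genes, and 0 of 10 were higher, against 7.01%. The 10 genes were chosen with earlier results of these data known, so such shares are a description and not a test. By the Wald test of DESeq2 the same 5 genes passed the FDR, where 1.38% of all genes were lower. Log2 fold changes were below 0 for 10 of 10 genes and for 53.3% of all tested genes. Their median was -0.18 over the 10 genes and -0.01 over all tested genes. The 8 cardiomyocyte markers had a median of -0.17, with 7 below 0. Pdha1, Pdhb and Dlat of the pyruvate dehydrogenase complex were at -0.10, -0.14 and -0.09. Whether the 10 genes as a set fell further than other cardiomyocyte genes was not tested.

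**Figure D1:**
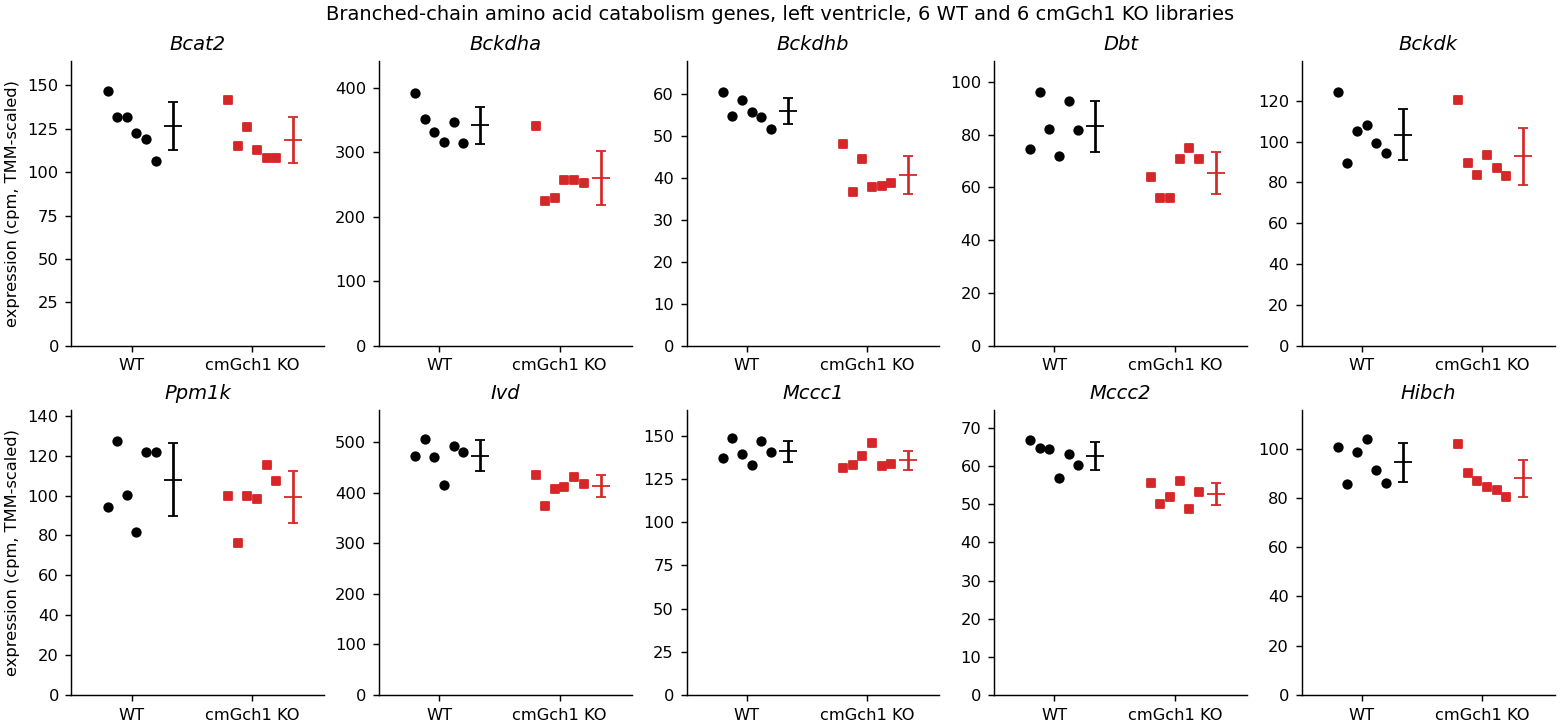
Expression of the 10 genes in cpm, scaled by TMM factors, in each of 6 WT (black circles) and 6 cmGch1 KO (red squares) libraries, in replicate order, with the mean and SD beside the points. All axes start at 0. The groups are separate for Bckdhb, between 51.7 and 60.5 cpm in WT and 36.7 and 48.1 cpm in cmGch1 KO, and for Mccc2, and they overlap for the other 8 genes. Such a separation, lower in cmGch1 KO, held for 0.802% of all tested genes.

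Among the WT hearts the genes spanned a wide range of levels per kilobase of exon. Bckdha was highest at 180 ± 15.3 cpm per kb (SD, n = 6), followed by Ivd at 85.9 ± 5.64 cpm per kb, and neither overlapped with its neighbour below. Bcat2 (32.4), Bckdhb (31.0), Bckdk (28.0), Dbt (24.8), Mccc2 (22.4), Ppm1k (17.9) and Hibch (15.6 cpm per kb) followed, each overlapping with the next over the 6 libraries. Mccc1 was lowest at 12.9 ± 0.548 cpm per kb and did not overlap with Hibch. This order depends on the length of the exon union, which was 10952 bases for Mccc1 and 2802 bases for its partner Mccc2. Not divided by length, Mccc1 averaged 141 cpm in WT and Mccc2 62.7 cpm. The α subunit of the decarboxylase thus had a higher level per kilobase than the β subunit, although 61.7% of the exon bases of Bckdha (1171 bases) are shared with B3gnt8 on the opposite strand, and the setting of strand in the counting is not given in the sources used here. B3gnt8 itself was at 2.32 ± 0.195 cpm in WT against 2.74 ± 0.306 cpm in cmGch1 KO (SD, n = 6).

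Bcat2 (ENSMUSG00000030826; chr7:45570153-45589711, plus strand), which performs the first and reversible step, was at 147, 131, 132, 123, 119 and 107 cpm in WT replicates 1 to 6. The cmGch1 KO replicates were at 142, 115, 126, 113, 108 and 108 cpm. The 6 cmGch1 KO values all lay within the WT range. The log2 fold change of -0.09 (SE 0.09; 95% interval -0.29 to 0.10) had an adjusted p of 0.789 from edgeR's quasi-likelihood test. The cytosolic isoenzyme Bcat1 was at 0.762 ± 0.274 cpm in WT against 0.956 ± 0.203 cpm in cmGch1 KO (SD, n = 6), too low to be tested. Of the exon bases of Bcat2, 15.9% are shared with an antisense transcript.

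The decarboxylase and core of the dehydrogenase complex had the lowest log2 fold changes of the 10 genes. Bckdhb (ENSMUSG00000032263; chr9:83925145-84124240, plus strand) was at 60.5, 54.8, 58.6, 55.8, 54.5 and 51.7 cpm in WT replicates 1 to 6. It was at 48.1, 36.7, 44.5, 37.8, 38.2 and 38.7 cpm in the cmGch1 KO replicates. Each cmGch1 KO library was below the lowest WT library, a separation seen in that direction for 0.802% of all tested genes. Mean expression was 56.0 ± 3.13 cpm in WT against 40.7 ± 4.57 cpm in cmGch1 KO (SD, n = 6). The log2 fold change was -0.46 (SE 0.08, adjusted p = 0.0086, edgeR), and the exact two-sided permutation test gave p = 0.00216, the smallest that 6 against 6 libraries allow. Bckdhb ranked 45 among all tested genes by p. Its difference did not rest on the replicates that stood apart, since the log2 fold change without cmGch1 KO replicates 2 and 3 was -0.46 (adjusted p = 0.0476, edgeR).

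Bckdha (ENSMUSG00000060376; chr7:25629946-25658981, minus strand), the subunit that Bckdk phosphorylates, was at 393, 351, 331, 316, 347 and 314 cpm in WT. The cmGch1 KO libraries were at 341, 225, 229, 256, 257 and 253 cpm. Replicate 1 lay inside the WT range and the other 5 lay below all WT libraries. Bckdha had a log2 fold change of -0.39 (SE 0.10, adjusted p = 0.0795, edgeR), which became -0.49 (adjusted p = 0.0035, edgeR) without cmGch1 KO replicate 1. Without replicates 2 and 3 it was -0.30 (adjusted p = 0.410, edgeR).

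Dbt (ENSMUSG00000000340; chr3:116513070-116549981, plus strand), the acyltransferase core, was at 74.5, 96.1, 82.0, 71.8, 92.9 and 81.8 cpm in WT. It was at 63.8, 56.0, 56.1, 70.9, 74.8 and 70.8 cpm in cmGch1 KO. Replicate 5 alone reached the WT range, and replicates 2 and 3 were the lowest. The log2 fold change was -0.35 (SE 0.10, adjusted p = 0.123, edgeR), with an exact permutation p of 0.00649, and it was -0.24 (adjusted p = 0.562, edgeR) without replicates 2 and 3. Dld, the component shared with other dehydrogenase complexes, was at 558 ± 7.74 cpm in WT against 531 ± 22.8 cpm in cmGch1 KO (SD, n = 6), with a log2 fold change of -0.07 (adjusted p = 0.690, edgeR).

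**Figure D2:**
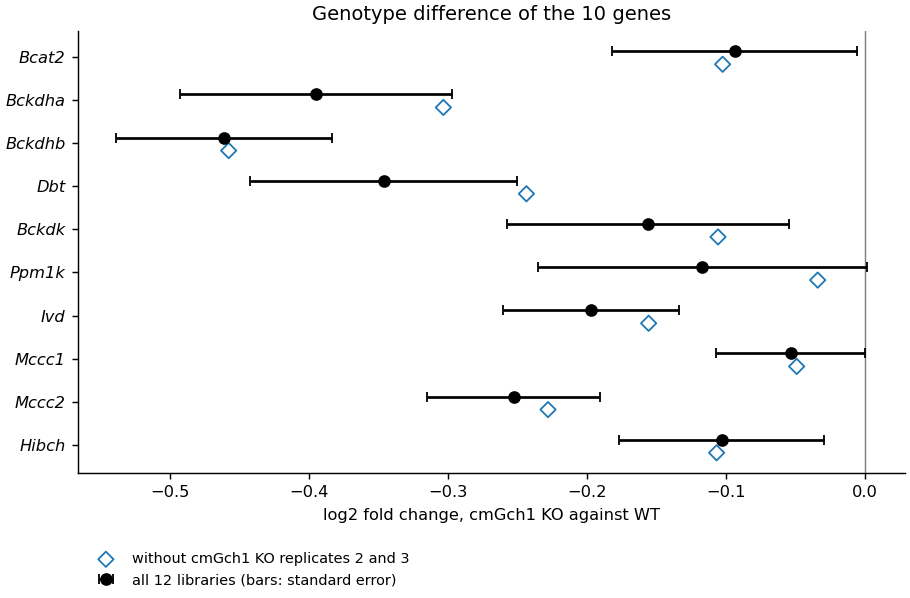
Log2 fold change of each of the 10 genes, cmGch1 KO against WT, from edgeR with all 12 libraries (black circles, bars show the standard error) and without cmGch1 KO replicates 2 and 3 (blue diamonds). Bckdhb was at -0.46 in both fits, while Dbt moved from -0.35 to -0.24 and Ppm1k from -0.12 to -0.03.

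No difference between the genotypes was detected for the kinase and the phosphatase of the complex. Bckdk (ENSMUSG00000030802; chr7:127904082-127910221, plus strand) was between 89.6 and 124 cpm in WT with a median of 102.2 cpm, and between 83.2 and 120.4 cpm in cmGch1 KO with a median of 88.4 cpm. The cmGch1 KO maximum was replicate 1, and 4 of the 6 libraries lay below the lowest WT library. This was a log2 fold change of -0.16 (SE 0.10, adjusted p = 0.639, edgeR). Ppm1k (ENSMUSG00000037826; chr6:57506502-57535468, minus strand) was between 82.0 and 127 cpm in WT and between 76.3 and 115 cpm in cmGch1 KO, and 1 cmGch1 KO library lay below the WT range. edgeR gave a log2 fold change of -0.12 (SE 0.12, adjusted p = 0.811, edgeR), with the widest standard error of the 10 genes.

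On the leucine branch none of the 3 genes passed the FDR, and 1 of them, Mccc2, did not overlap between the genotypes. Groups were separate in that direction, lower in cmGch1 KO, for 0.802% of all tested genes. Ivd (ENSMUSG00000027332; chr2:118861954-118882909, plus strand), isovaleryl-CoA dehydrogenase, was at 473, 505, 471, 415, 493 and 480 cpm in WT. It was at 436, 374, 407, 411, 431 and 417 cpm in cmGch1 KO. WT replicate 4 lay among the cmGch1 KO values and the other 5 WT libraries were above all of them. Its log2 fold change was -0.20 (SE 0.06, adjusted p = 0.193, edgeR).

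Mccc2 (ENSMUSG00000021646; chr13:99948530-100015639, minus strand), the β subunit of methylcrotonyl-CoA carboxylase, was at 67.0, 64.7, 64.6, 56.8, 63.1 and 60.1 cpm in WT. The cmGch1 KO libraries were at 55.6, 50.2, 51.9, 56.2, 48.7 and 53.2 cpm. The groups did not overlap, with WT replicate 4 and cmGch1 KO replicate 4 the nearest. The log2 fold change was -0.25 (SE 0.06), which missed the FDR with an adjusted p of 0.0744 (edgeR), and the exact permutation test gave p = 0.00216. Leaving out cmGch1 KO replicate 1 gave -0.27 (adjusted p = 0.0477, edgeR).

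Mccc1 (ENSMUSG00000027709; chr3:35959312-36000678, minus strand), the biotin-carrying α subunit of the same carboxylase, was between 133 and 149 cpm in WT and between 132 and 146 cpm in cmGch1 KO. The ranges were nearly the same. This was a log2 fold change of -0.05 (SE 0.05; 95% interval -0.17 to 0.07; adjusted p = 0.807, edgeR), and it turned to 0.022 when only library size was used for scaling.

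Hibch (ENSMUSG00000041426; chr1:52844929-52920986, plus strand), which frees hydroxyisobutyrate from its CoA ester on the valine branch, was between 85.8 and 104 cpm in WT and between 80.4 and 102 cpm in cmGch1 KO. The medians were 94.8 and 85.8 cpm, and 3 cmGch1 KO libraries lay below the WT range. The log2 fold change was -0.10 (SE 0.07, adjusted p = 0.685, edgeR).

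Each library was then placed by all 10 genes together. The mean of the genes' log2 values, centred over the 12 libraries, was between 0.02 and 0.17 in WT and between -0.23 and 0.05 in cmGch1 KO libraries. The highest cmGch1 KO library was replicate 1 and the lowest were replicates 2 and 3, at -0.23 and -0.14. Replicate 1 of cmGch1 KO lay below the median of the 12 libraries for 5 of the 10 genes, and the other cmGch1 KO libraries for 8 or 9.

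**Figure D3:**
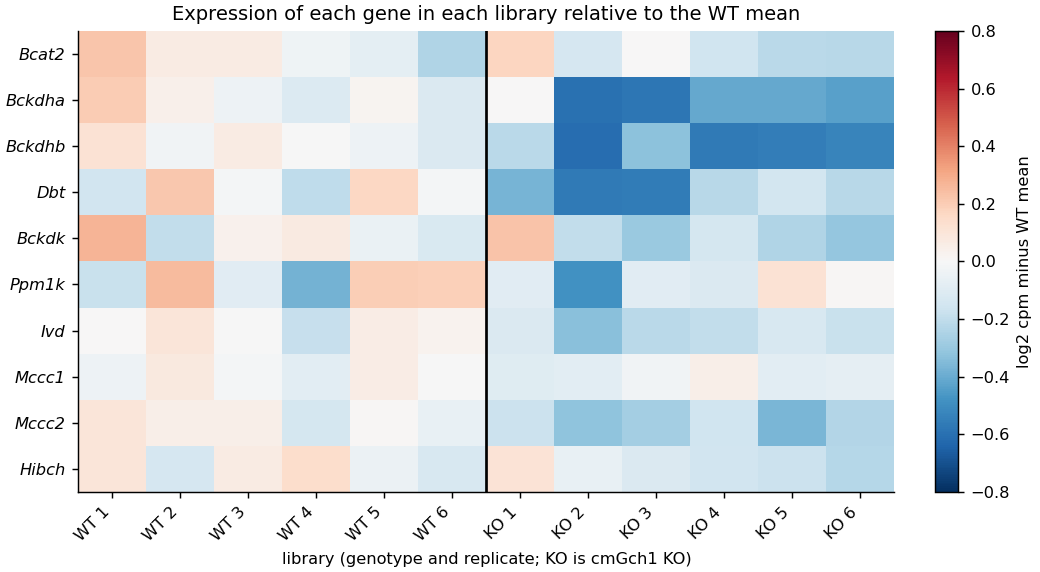
Expression of each gene in each library, as log2 cpm minus the mean of the WT libraries on a colour scale from -0.8 (blue) to 0.8 (red), with WT to the left and cmGch1 KO to the right of the black line. Bckdha, Bckdhb and Dbt are the bluest rows, and cmGch1 KO replicate 1 is the palest of the cmGch1 KO columns.

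Within a genotype the genes varied together in some pairs and in opposite ways in others. After the genotype means were subtracted, Pearson's r over the 12 libraries was above 0 in 30 of 45 pairs, with a median of 0.39, and lay between -0.69 (Ppm1k with Hibch) and 0.89 (Ppm1k with Ivd). The correlation was 0.87 for Bcat2 with Bckdhb and 0.87 for Bckdk with Hibch. The pairs share libraries and scaling factors, so these values are a description. The tested genes outside the set whose log2 cpm followed the mean of the 10 standardized profiles most closely over the 12 libraries were Tollip (r = 0.955), Acadm (0.952), Pccb (0.941), Ldhd (0.939) and Coq8a (0.937). With the genotype means subtracted they were Tollip (r = 0.931), Coq8a (0.924), Acadm (0.918), Cyp2j6 (0.899) and Ak3 (0.893). Acadm encodes the medium-chain acyl-CoA dehydrogenase of fatty acid oxidation and Pccb a subunit of propionyl-CoA carboxylase. None of these genes passed the FDR between the genotypes, with adjusted p-values from 0.0712 for Pccb to 0.810 for Cyp2j6 (edgeR).

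Ratios of paired genes within a library were compared to ask whether partners moved together. Of 10 ratios, 5 differed at an adjusted p under 0.05 (exact permutation test, two-sided, with Benjamini-Hochberg adjustment over the 10). The pairs were chosen with earlier results of these data known, and the share among other gene pairs was not computed. Ratios that hold Bckdhb, Bckdha, Dbt or Mccc2 are not independent of the fold changes of these genes. The log2 ratio of Bcat2 to Bckdhb was 1.17 ± 0.0885 in WT against 1.54 ± 0.0637 in cmGch1 KO (SD, n = 6), a difference of 0.37 (95% interval 0.27 to 0.47, exact permutation p = 0.00216, adjusted p = 0.0072). The dehydrogenase subunit was thus lower relative to the transaminase in 6 of 6 cmGch1 KO libraries, and no library overlapped.

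The log2 ratio of Mccc1 to Mccc2, the partners whose promoters are printed above, was 1.17 ± 0.0797 in WT against 1.37 ± 0.0742 in cmGch1 KO (SD, n = 6). The difference of 0.20 (95% interval 0.10 to 0.30) had an exact permutation p of 0.00216 and an adjusted p of 0.0072, and the nearest libraries were 1.23 in WT and 1.24 in cmGch1 KO. The ratio was above the WT mean in 6 of 6 cmGch1 KO libraries.

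Within the branched-chain complex no change of ratio was detected. The difference in the log2 ratio was 0.06 for Bckdha to Bckdhb (95% interval -0.11 to 0.23, exact permutation adjusted p = 0.547). Without cmGch1 KO replicate 3 it was 0.12 (exact permutation adjusted p = 0.0794), and without replicates 2 and 3 it was 0.15 (exact permutation p = 0.0238, adjusted p = 0.0595). With all libraries it was -0.06 for Bckdha to Dbt (-0.34 to 0.22, exact permutation adjusted p = 0.705) and -0.12 for Bckdhb to Dbt (-0.43 to 0.20, exact permutation adjusted p = 0.547). The kinase to phosphatase ratio, Bckdk to Ppm1k, differed by -0.05 (-0.50 to 0.40, exact permutation adjusted p = 0.810) and that of Ivd to Hibch by -0.09 (-0.32 to 0.13, exact permutation adjusted p = 0.547). The interval for Bckdk to Ppm1k spans a difference as large as the fold change of Bckdhb, and that for Bckdha to Bckdhb, with all libraries, does not.

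The subunits were also set against the corresponding subunits of the pyruvate dehydrogenase complex, an enzyme of the same build that oxidises pyruvate. Bckdhb was lower relative to Pdhb, with a log2 ratio of -3.47 ± 0.0557 in WT against -3.80 ± 0.107 in cmGch1 KO (SD, n = 6), a difference of -0.32 (exact permutation adjusted p = 0.0072), and no library overlapped. The difference was -0.26 for Dbt to Dlat (exact permutation adjusted p = 0.0271) and -0.30 for Bckdha to Pdha1 (exact permutation adjusted p = 0.0476). The call for Bckdha to Pdha1 was marginal. Leaving out a single library lost it in 11 of 12 cases, with differences between -0.33 and -0.25 there, and without cmGch1 KO replicate 1 the difference was -0.40 (exact permutation adjusted p = 0.0054). Without cmGch1 KO replicates 2 and 3 the ratios of Dbt to Dlat (-0.17, exact permutation adjusted p = 0.105) and of Bckdha to Pdha1 (-0.23, exact permutation adjusted p = 0.175) both missed it. The 3 ratios that did not overlap kept an adjusted p of 0.0159 without these replicates (exact permutation test).

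**Figure D4:**
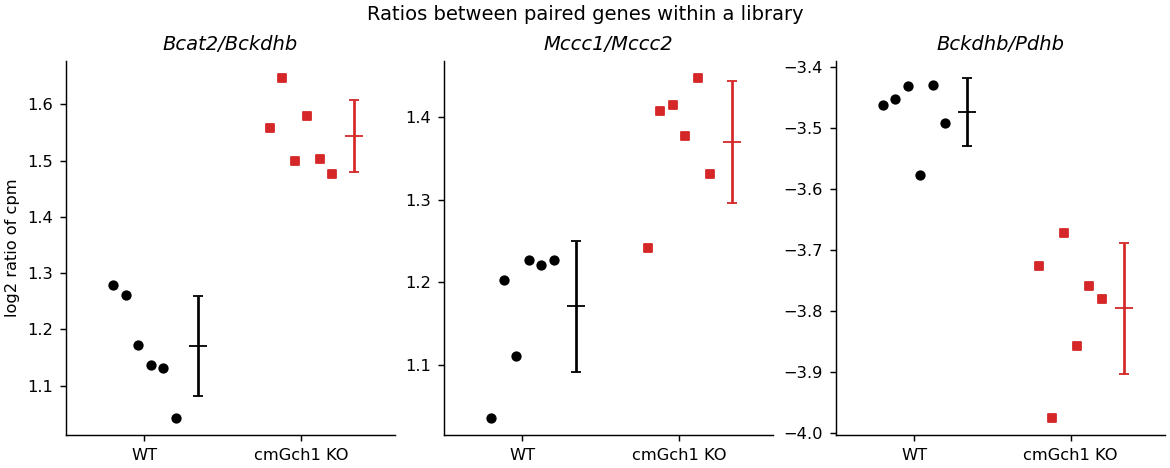
Log2 ratio of cpm within each library for Bcat2 to Bckdhb, Mccc1 to Mccc2 and Bckdhb to Pdhb in 6 WT (black circles) and 6 cmGch1 KO (red squares) libraries, with mean and SD. The axes do not start at 0. No library of 1 genotype overlaps with the other, and the closest approach is that of 1.23 and 1.24 for Mccc1 to Mccc2.

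The rest of the pathway was covered by a list of 27 further genes, of which 25 were tested. A single gene of the 25 passed the FDR, and it was a transporter that rose. Slc7a5, the light chain of the large neutral amino acid transporter of the plasma membrane, was at 5.39, 6.49, 5.66, 4.61, 5.81 and 6.25 cpm in WT. It was at 7.77, 11.7, 12.05, 8.92, 10.9 and 7.42 cpm in cmGch1 KO. All cmGch1 KO libraries were above the highest WT library, and replicates 2 and 3 were the highest. A separation in either direction was seen for 1.87% of all tested genes. edgeR gave a log2 fold change of 0.78 (SE 0.14, adjusted p = 0.0117, edgeR), and 0.677% of all tested genes were higher at this FDR. Without replicates 2 and 3 it was 0.62 and the call was lost (adjusted p = 0.0885, edgeR). Its heavy chain partner Slc3a2 was at 33.8 ± 1.26 cpm in WT against 37.0 ± 3.15 cpm in cmGch1 KO (SD, n = 6), with a log2 fold change of 0.13 (adjusted p = 0.491, edgeR). Of the other carriers, Slc43a2 had a log2 fold change of 0.23 (adjusted p = 0.392, edgeR), Slc7a8 one of 0.06 and Slc25a44, a mitochondrial carrier of branched-chain amino acids, one of -0.06. The sign of Slc7a8 turned without cmGch1 KO replicate 2 or 4, and that of Slc25a44 when only library size was used for scaling. Slc43a1 was below the filter, at 1.92 ± 0.400 cpm in WT against 1.31 ± 0.384 cpm in cmGch1 KO (SD, n = 6).

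Before adjustment, 8 of the 25 were lower with a p under 0.05 (Acadsb, Acat1, Hibadh, Klf15, Mmab, Oxct1, Pcca and Pccb) and 3 were higher (Sesn2, Slc43a2 and Slc7a5), beside 4.51% and 7.01% of all tested genes. This list too was drawn up with earlier results of these data known, so the shares describe it and are not a test. Without cmGch1 KO replicates 2 and 3 the counts were 6 lower, with Acadsb and Klf15 lost, and 2 higher, with Slc43a2 lost. In that fit 2.63% of all tested genes were lower and 4.5% were higher. Log2 fold changes were below 0 for 20 of 25, against 53.3% of all tested genes, and the median of the 25 was -0.13. With library size alone they were below 0 for 17 of 25, against 30.1% of all tested genes, whose median was then 0.07. The subunits of propionyl-CoA carboxylase, which takes the propionyl-CoA of isoleucine and valine onward, were close to the threshold. Pcca was at 96.0 ± 5.03 cpm in WT against 80.1 ± 5.05 cpm in cmGch1 KO (SD, n = 6) with a log2 fold change of -0.26 (adjusted p = 0.0611, edgeR). Its libraries did not overlap, which held in that direction for 0.802% of all tested genes. Pccb was at 134 ± 8.16 and 111 ± 8.33 cpm with a log2 fold change of -0.27 (adjusted p = 0.0712, edgeR). With the Wald test of DESeq2, where 1.38% of all tested genes were lower, Pcca and Pccb both passed the FDR. The authors list both as lower under fatty acid metabolism, among the genes they called by edgeR at an FDR under 0.05.

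Oxct1, which activates ketone bodies, was at 1476 ± 46.4 cpm in WT against 1283 ± 43.5 cpm in cmGch1 KO (SD, n = 6). Its libraries did not overlap (0.802% of all tested genes in that direction) and its log2 fold change was -0.20 (adjusted p = 0.117, edgeR). Acat1, the thiolase at the end of the isoleucine branch, had a log2 fold change of -0.27 (adjusted p = 0.191, edgeR), and Hibadh, which follows Hibch on the valine branch, one of -0.21 (adjusted p = 0.269, edgeR). For other genes of the valine and methylmalonate route the values were -0.19 for Mmab (adjusted p = 0.259, edgeR), -0.13 for Aldh6a1, -0.12 for Mcee, -0.11 for Mut and -0.05 for Mmaa. That of Mmaa turned positive when only library size was used for scaling.

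Klf15 was at 51.7, 48.2, 70.5, 65.0, 53.4 and 86.1 cpm in WT and at 49.2, 30.4, 30.8, 37.7, 39.1 and 68.2 cpm in cmGch1 KO. The groups overlapped, with cmGch1 KO replicates 2 and 3 lowest and replicates 1 and 6 inside the WT range. Its log2 fold change was -0.55 (SE 0.20, adjusted p = 0.256, edgeR), and -0.36 (adjusted p = 0.819, edgeR) without replicates 2 and 3. Sesn2, a leucine sensor of the mTOR pathway, was at 5.14 ± 0.902 cpm in WT against 6.86 ± 0.848 cpm in cmGch1 KO (SD, n = 6), a log2 fold change of 0.41 (adjusted p = 0.191, edgeR). Ppargc1a, a coactivator of mitochondrial genes, had one of -0.26 (adjusted p = 0.606, edgeR).

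**Figure D5:**
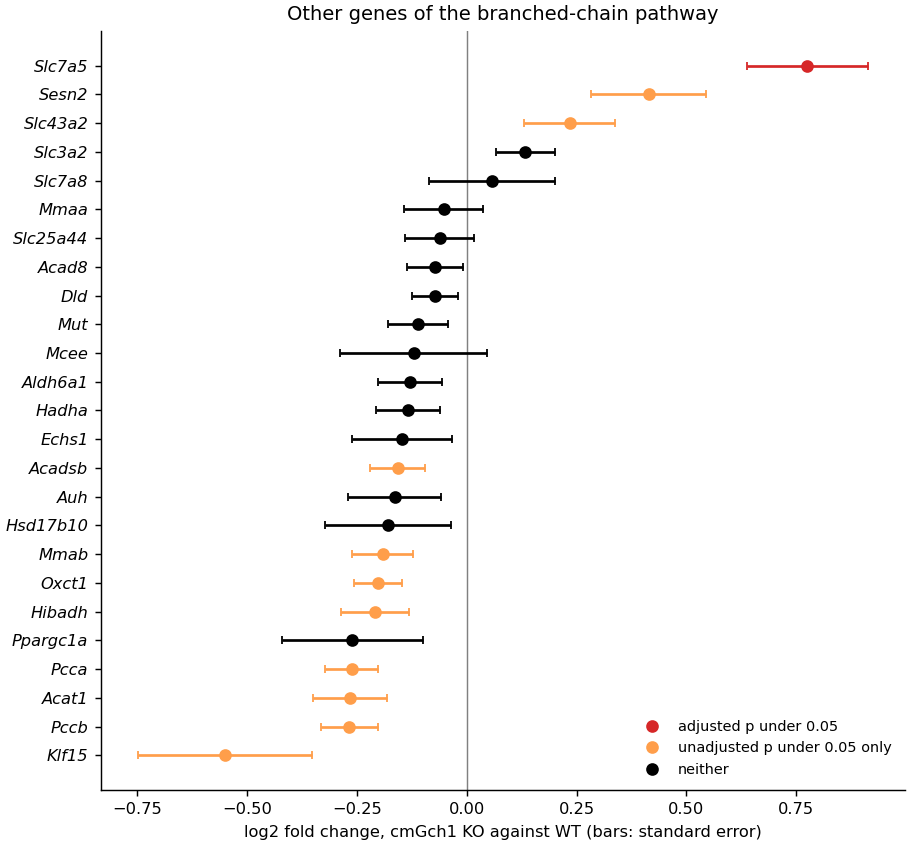
Log2 fold change, cmGch1 KO against WT, of the 25 tested genes of the further pathway list, with bars for the standard error (edgeR). Red marks an adjusted p under 0.05, orange an unadjusted p under 0.05 only, and black neither. Slc7a5 at 0.78 is the only red point, and 20 of the 25 points lie below 0, against 53.3% of all tested genes.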

How the data were processed

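Total RNA of the left ventricle was sequenced in 12 libraries, which were grouped by the genotype in the labels. The authors made stranded paired-end libraries with dUTP and generated raw read counts per Ensembl gene with HISAT2, Picard and featureCounts, and they deposited these counts without normalization. The authors also deposited normalized values on a log2-like scale, whose making is not stated, and these were used only as an alternative. The submitters' processing notes name HISAT2, SAMtools and GRCm38. The annotation, the strand setting and tool versions of the counting are not given in the sources used here.

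Identifiers were given symbols from GENCODE M21 on GRCm38 (26582 matched, 98.7%). Whole numbers were checked. A cpm over 3 in 6 or more libraries was required, and these genes were tested with edgeR 4.0.16 in R 4.3.3 (TMM, quasi-likelihood test, Benjamini-Hochberg adjustment over all tested genes, FDR 0.05) on genotype, without covariates. TMM-scaled cpm were also compared by exact permutation over all 924 splits, two-sided. The 95% intervals use 10 residual degrees of freedom and cover the spread between libraries. Levels per kilobase use the union of exons. Scripts were tested on simulated data. The genes named are the 10 genes, Gch1, the genes of the further pathway list and of the pairs, cell type markers, sex-linked genes, and the 5 non-member genes with the highest correlation, also with genotype means subtracted. A gene planned for the pathway list is not reported here. The overlap partner B3gnt8 was named in addition. The 10 genes and all lists were chosen with earlier results of these data known. Alternatives were DESeq2 size factors, library size alone, the Wald test of DESeq2 1.42.0, limma 3.58.1 on the deposited log2 values, no filter, cpm over 3 in every library, the replicate number as a block, a sex-linked covariate, and leaving out libraries.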

Additional observations from a re-analysis of the deposited data

Results flagged for a closer look

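In each group of 6 libraries the highest and the lowest value were examined for a gap to the next library that exceeded Dixon's 95% critical value for 6 libraries, as a share of the range. Of 90 groups examined, over genes and ratios, 10 were flagged. For normally distributed values about 1 in 20 would be flagged by chance. The groups share libraries, and the ratios share genes with them, so they are not independent and this rate is only a rough guide.

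Of these 10, 8 were high values of cmGch1 KO replicate 1, the cmGch1 KO library with the highest mean of the 10 genes. Bckdha was at 341 cpm there (225 to 257 cpm in the other 5 cmGch1 KO libraries) and Bckdk at 120.4 cpm (83.2 to 93.4). Auh, a hydratase of the leucine branch, was at 109 cpm (72.7 to 79.6). Echs1, a hydratase of the valine and isoleucine branches, was at 529 cpm (351 to 391), Acat1 at 729.6 cpm (542 to 605), Hibadh at 296 cpm (225 to 245) and Pccb at 127 cpm (104 to 112). The log2 ratio of Bckdha to Pdha1 was -1.48 in this library, against -2.10 to -1.93 in the other 5. In WT replicate 1 the same ratio was -1.37, against -1.76 to -1.64 in the other 5 WT libraries. In WT replicate 2 Aldh6a1, the dehydrogenase of methylmalonate semialdehyde, was at 281.5 cpm, against 220 to 242 cpm. The mitochondrial share of counts in cmGch1 KO replicate 1 was 21.3%, within the range of the other libraries.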

How the results depend on the processing

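Bckdhb kept its direction and its call in the main analysis and all 21 alternatives (log2 fold change -0.52 to -0.39, highest adjusted p 0.0476, edgeR, DESeq2 or limma). The number of the 10 genes called was 5 with the Wald test of DESeq2 (Bckdha, Bckdhb, Dbt, Ivd and Mccc2, where 1.38% of all genes were lower) and 1 to 3 when each library was left out, the 3 without cmGch1 KO replicate 1. For the further pathway genes the number called was 4 with the Wald test (Oxct1, Pcca, Pccb and Slc7a5), 0 with the sex-linked covariate, 0 without cmGch1 KO replicates 2 and 3, and 1 to 4 when each library was left out, with 4 without cmGch1 KO replicate 1 and 2 without WT replicate 6. Of the ratios, 3 passed without cmGch1 KO replicates 2 and 3. Directions reversed for Mccc1 with library size alone (0.022, where the median of all genes was 0.07), for Bckdha to Dbt without WT replicate 1 (0.014; from -0.14 to 0.014 over the libraries left out), and for Bckdk to Ppm1k without WT replicate 1 (0.041), WT replicate 4 (0.040), cmGch1 KO replicate 5 (0.012) or cmGch1 KO replicate 6 (0.0041; from -0.14 to 0.041 over the libraries left out). Among the further pathway genes Dld, Mmaa and Slc25a44 turned positive with library size alone, and Slc7a8 negative without cmGch1 KO replicate 2 or 4. None of these was called. Over all genes 126 were called, 373 with the Wald test, 188 with the block, 62 with the covariate, 38 without cmGch1 KO replicates 2 and 3, and 75 to 213 when each library was left out. The cause of these changes was not tested, beyond the fewer libraries.

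Same-numbered libraries of the genotypes correlated in their deviations between -0.13 and 0.68, and in 3 of 6 numbers the library of the same number was the best match. These are hints from the data of a shared number, but 3 of the 6 correlations were below 0 and the labels give no meaning to the numbers, so they were not taken to pair the libraries. With the replicate number as a block, 2 of the 10 genes were called (Bckdhb, and Bckdha with an adjusted p of 0.0219, edgeR), 3 further pathway genes (Acat1, Pccb and Slc7a5) and 0 ratios. For ratios, 64 permutations within numbers allow no p below 0.0312 (exact permutation test), and the lowest adjusted p was 0.0781.

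Each of the 10 genes had at least 793 counts in every library, while Bcat1 and Slc43a1 were too low to be tested.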
